A study of Mus musculus with 4 samples.

Results

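The Bcl2 family genes described here are Bax, Bak1, Bok, Bid, Bad, Bcl2l11, Bcl2, Bcl2l1, Bcl2l2 and Mcl1. They were matched to the deposited table by symbol, and all 10 were found, each on 1 of the 11160 features it lists as expressed genes. Their RNA was measured by strand-specific RNA-seq, after depletion of ribosomal RNA, in mouse neural progenitors of the dorsal telencephalon. Donor embryos were C57BL/6J at embryonic day 12.5, and their cells were grown as neurospheres, free-floating balls of dividing cells, in medium with FGF and insulin. The groups were wild type (WT) and full knockout of Mcph1, the gene for microcephalin, with 2 libraries each. Cultures of single embryos were combined by 2 or 3 in a flask within a genotype and expanded for 2 to 3 days. RNA samples of a genotype were then pooled again, so each library is a pool, and p-values measure only the spread between these pools. The study's title names cell cycle progression and survival, and the family decides survival at the mitochondrion.

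Proteins of the Bcl2 family meet at the outer membrane of the mitochondrion. Effectors (Bax, Bak1 and Bok) can open pores there and let cytochrome c escape, which starts the caspase cascade. Guardians (Bcl2, Bcl2l1, Bcl2l2 and Mcl1) hold Bax and Bak1 in check, and BH3-only proteins (Bid, Bad and Bcl2l11) carry death signals by binding guardians or effectors. Much of this control acts on the proteins, by cleavage, phosphorylation and degradation, and RNA levels do not show it. In the developing cortex the pathway removes damaged progenitors and surplus young neurons.

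The 4 libraries held between 5975471 and 22347416 recovered reads. Levels are given as scaled CPM, which are counts per 1000000 after the libraries were brought to a common scale. A count over the whole Mcph1 gene does not check a knockout whose deleted part the labels do not give, so the second group is called KO-labelled, with the libraries KO 1 and KO 2. Mcph1 itself stood at 21.1 and 21.6 CPM in WT, against 19.5 CPM in KO 1 and 20.3 CPM in KO 2, and every direction below rests on the label. All 8 progenitor markers listed were measured, with summed levels of 12854, 13176.5, 6227 and 8965 CPM in WT 1, WT 2, KO 1 and KO 2. In the same order, Fabp7 (5307, 5387, 2020 and 2263 CPM) and Vim (4757, 4911, 2208 and 4211 CPM) carried most of each sum. The markers did not move together: Fabp7, Vim, Nes, Sox2 and Hes5 were highest in WT 2, Pax6 in KO 1, and Slc1a3 and Notch1 in KO 2. All 7 oligodendrocyte lineage and all 4 astrocyte markers were measured too, which shows that they were detected and not which cells expressed them. None of the markers of microglia (5), endothelium (4) and mesenchyme (4) was on the table. KO 1 and KO 2 stood apart from each other: 10.2% of the 10959 features tested differed more than 2-fold between them, against 4.84% between WT 1 and WT 2. KO 2 had the fewest recovered reads, and 21.0% of them lay on its 10 highest features, against 12.7% to 13.5% in the other libraries. Features without a symbol held 21.8% of the reads of KO 2, against 11.9% to 13.9% in the others. The part of this in the values of KO 2 was not tested.

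Mcl1 and Bax were the most abundant transcripts of the family per length, and Bcl2l2 the least abundant. Levels of different genes are compared in scaled CPM per kilobase of the longest coding transcript in GENCODE M21. Mcl1, which encodes a short-lived guardian that mouse neural progenitors need for survival, stood at 68.4 and 70.8 CPM per kilobase in WT and 69.9 and 53.4 in the KO-labelled libraries. Bax came second in every library, with 26.8 to 39.7 CPM per kilobase, and never reached the lowest Mcl1 value. Both ranks were thus the same in all 4 libraries.

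Bad followed with 11.3 to 13.5 CPM per kilobase, and its lowest and highest values lay close together. Bak1 ranged from 6.09 to 12.6 CPM per kilobase and Bcl2 from 8.09 to 10.2, and these neighbours changed places between libraries, as did Bad and Bak1 in KO 2. Bcl2l1 (3.05 to 7.31) and Bid (4.24 to 5.47) also could not be ordered, nor could Bcl2l11 (2.62 to 3.56) and Bok (2.55 to 4.33). These pairs also crossed each other. Bok stood above both Bid and Bcl2l1 in WT 2, and Bcl2l1 stood above Bak1 in KO 1 and below Bcl2l11 in KO 2. Bcl2l2 was last in every library, with 0.923 to 1.57 CPM per kilobase. With the median length of coding transcripts in place of the longest, the first 5 ranks and the last 3 were the same, and Bcl2l1 and Bid swapped.

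**Figure D1:**
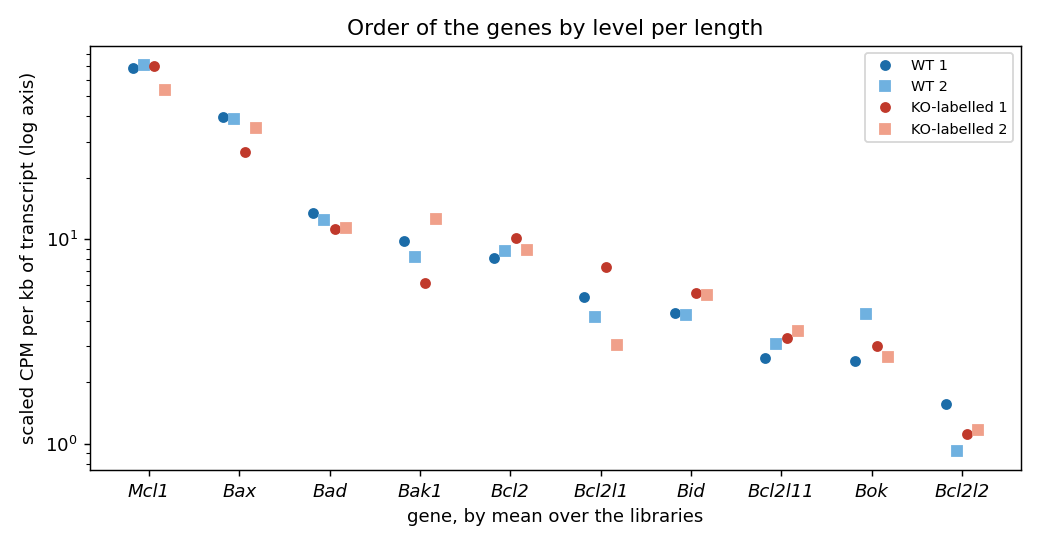
Level of each gene in scaled CPM per kilobase of transcript (log axis), by library, with genes ordered by their mean over the 4 libraries. Mcl1 lies above Bax in every library, and Bcl2l2 lies below all others, with 0.923 to 1.57 CPM per kilobase.

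Within the guardians, Mcl1 made up 79.0% to 83.6% of the summed level per kilobase, the lowest share being that in KO 1. Bcl2 made up 9.71% and 10.4% in WT and 11.5% and 13.3% in the KO-labelled libraries. Bcl2l1 held 8.26% in KO 1 and 4.58% to 6.29% in the others. Among the effectors, Bax held 69.7% to 76.3%, with the lowest share in KO 2, where Bak1 held 25.0% against 16.0% to 18.9% elsewhere.

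None of the 10 genes passed the test between genotypes. Limma's moderated test was run on the log2 scale over all 10959 features, adjusted by Benjamini-Hochberg and read at 0.05. It called 0 features of all tested (0%). At an unadjusted p under 0.05 the count was 0 of the 10 genes, where 7.58% of all features lay under it. The edgeR quasi-likelihood test, the edgeR exact test, limma-voom and DESeq2 also called 0 of the 10 and put 0 of them under an unadjusted 0.05, where 7.91%, 8.01%, 8.26% and 7.19% of all features lay, in that order. Over all features the exact test called 0.183% and DESeq2 0.188%. The groups did not overlap for 5 of the 10 genes: Bcl2, Bcl2l11 and Bid were higher in both KO-labelled libraries, and Bax and Bad lower in both. Over all features tested, 21.1% were higher and 20% lower in this way, 41.2% together, so the share among the family lies near the background. Estimates were above 0 for 4 of the 10 genes and below 0 for 6, and their median log2 fold change was -0.057, against 0.012 for all features. A p above the threshold does not show equal levels, and the interval of each estimate gives the changes that the data allow.

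**Figure D2:**
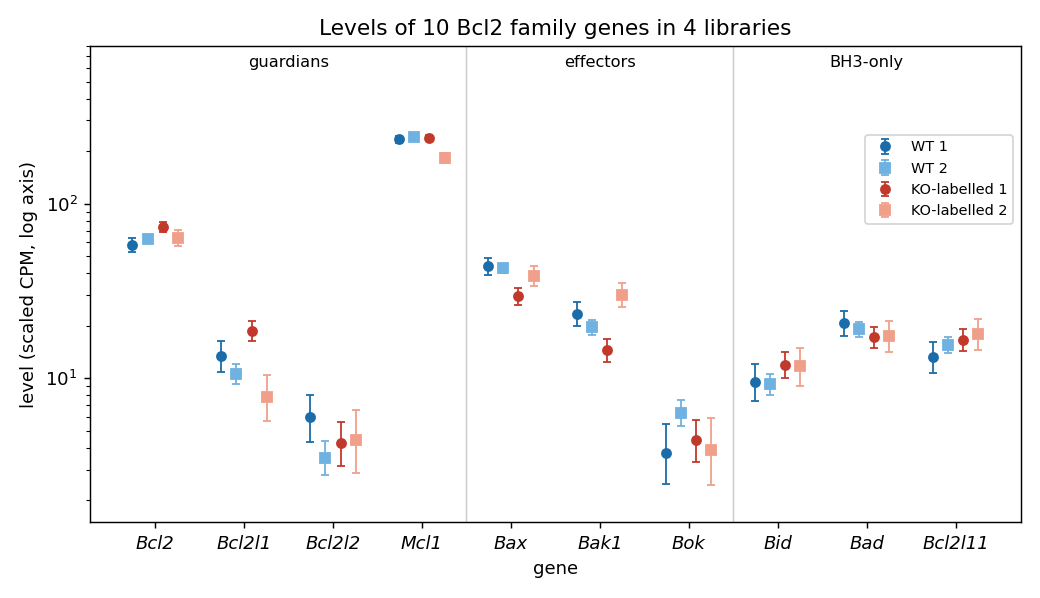
Scaled CPM (log axis) of each gene in each library, grouped as guardians, effectors and BH3-only genes. Bars are exact 95% Poisson intervals and cover counting error only. Both KO-labelled values lie on 1 side of both WT values for Bcl2, Bax, Bid, Bad and Bcl2l11, though KO 2 and WT 2 nearly coincide for Bcl2. KO 1 and KO 2 lie on opposite sides of WT for Bcl2l1 and Bak1.

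Bcl2 (feature GSMG0001955), the founding guardian of the family, stood at 58.2 and 63.1 CPM in WT, against 73.2 CPM in KO 1 and 63.5 CPM in KO 2. KO 2 lay only just above WT 2, within counting error, and KO 1 carried most of the difference. Between genotypes the estimate on the log2 scale was 0.17 (SE 0.22, with a 95% interval of -0.37 to 0.71, adjusted p = 0.839 by limma). It was 0.066 without KO 1, and 0.026 once the trend of values with transcript length and GC content had been removed.

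Mcl1 (feature GSMG0024663) was the deepest measured member, with 1027 to 5294 reads per library. It stood at 234 and 242 CPM in WT, against 239 CPM in KO 1 and 183 CPM in KO 2. KO 1 thus lay between the WT values, and only KO 2 was lower. The log2 fold change of -0.19 (SE 0.24, interval -0.77 to 0.39, adjusted p = 0.835 by limma) became -0.0032 without KO 2 and -0.38 without KO 1.

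Bcl2l1 (feature GSMG0023716) encodes Bcl-xL, the guardian known for keeping newborn neurons alive. It stood at 13.5 and 10.7 CPM in WT, 18.8 CPM in KO 1 and 7.82 CPM in KO 2. The KO-labelled libraries were thus the highest and the lowest of the 4, and the estimate on the log2 scale was 0.018 (SE 0.45, with an interval of -1.07 to 1.11, adjusted p = 0.995 by limma). Without KO 1 the estimate was -0.61, and without KO 2 it was 0.64.

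Bcl2l2 (feature GSMG0011580), which encodes the guardian Bcl-w, rested on 25 to 77 reads per library. It stood at 5.97 and 3.52 CPM in WT, against 4.25 CPM in KO 1 and 4.44 CPM in KO 2, which lay between the WT values. The interval of its log2 fold change, -1.07 to 0.91, spans changes of up to about 2-fold in either direction. Between the WT pools themselves, WT 1 was 1.70 times as high as WT 2 (95% counting interval 1.14 to 2.49).

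Bax (feature GSMG0035908), the main pore-forming effector and a target of p53, had the most negative estimate of the family. It stood at 43.7 and 42.6 CPM in WT, 29.5 CPM in KO 1 and 38.6 CPM in KO 2, so both KO-labelled libraries lay lower and KO 1 lowest. The 95% counting interval of KO 2, 33.6 to 44.1 CPM, covered both WT values. For Bax the estimate on the log2 scale was -0.36 (SE 0.25, with an interval of -0.95 to 0.24, adjusted p = 0.712 by limma), with -0.16 without KO 1 and -0.56 without KO 2. With 1100 bases and 63.5% GC, its transcript is the shortest and most GC-rich of the 10, and the estimate was -0.37 with the length and GC trend removed.

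Bak1 (feature GSMG0017283), the effector that sits in the mitochondrial membrane at rest, showed the reverse spread to Bcl2l1. It stood at 23.5 and 19.6 CPM in WT, 14.5 CPM in KO 1 and 30.0 CPM in KO 2. The KO-labelled libraries again bracketed both WT values, now with KO 2 highest. The log2 fold change was -0.037 (SE 0.38, adjusted p = 0.984 by limma), 0.48 without KO 1 and -0.57 without KO 2, and its sign also changed with upper quartile scaling and with the edgeR and DESeq2 tests.

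Bok (feature GSMG0000611) encodes a Bax-like effector that is kept low by protein degradation. It had 22 to 139 reads per library and stood at 3.75 and 6.35 CPM in WT, against 4.42 CPM in KO 1 and 3.91 CPM in KO 2. Its spread was widest between the WT pools, and both KO-labelled values lay inside it. The log2 fold change was -0.23 (SE 0.41, adjusted p = 0.891 by limma) and 0.14 without WT 2.

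Bid (feature GSMG0033630), which links death receptors to the mitochondrion once a caspase has cleaved it, had the largest positive estimate. It stood at 9.58 and 9.28 CPM in WT, against 11.98 CPM in KO 1 and 11.7 CPM in KO 2, with little spread within either group. This gave an estimate of 0.33 on the log2 scale (SE 0.28, with an interval of -0.34 to 0.99, adjusted p = 0.758 by limma), which stayed between 0.30 and 0.35 when any 1 library was left out. The reads behind it were few, 66 to 203 per library. The 95% counting interval of KO 1, 10.1 to 14.1 CPM, lay above both WT values, and that of KO 2, 9.07 to 14.9 CPM, covered them. The WT intervals, 7.45 to 12.1 CPM in WT 1 and 8.05 to 10.6 CPM in WT 2, overlapped that of KO 1.

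Bcl2l11 (feature GSMG0021754) encodes Bim, a BH3-only protein that can bind all guardians. It stood at 13.2 and 15.5 CPM in WT, against 16.6 CPM in KO 1 and 18.0 CPM in KO 2, so that the groups were separate but WT 2 lay close to KO 1. On the log2 scale the estimate was 0.27 (SE 0.26, with an interval of -0.37 to 0.90, adjusted p = 0.784 by limma). It was 0.15 without WT 1 and 0.17 with the length and GC trend removed.

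Bad (feature GSMG0019346), a BH3-only protein that survival kinases switch off by phosphorylation, stood at 20.7 and 19.1 CPM in WT, against 17.2 CPM in KO 1 and 17.4 CPM in KO 2. Both KO-labelled values lay below WT and close to each other, but the 95% counting interval of KO 2, 14.1 to 21.2 CPM, covered both WT values. For Bad the log2 fold change of -0.19 (SE 0.25, with an interval of -0.79 to 0.40, adjusted p = 0.832 by limma) was small against its error. The 3 BH3-only genes therefore did not lie on the same side, 2 having higher and 1 a lower estimate. The 4 guardians were split evenly. All 3 effectors had lower estimates, where 51.4% of all features had a higher one. The estimates of Bak1 (-0.037, SE 0.38) and Bok (-0.23, SE 0.41) were smaller than their errors and changed sign in some alternatives.

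**Figure D3:**
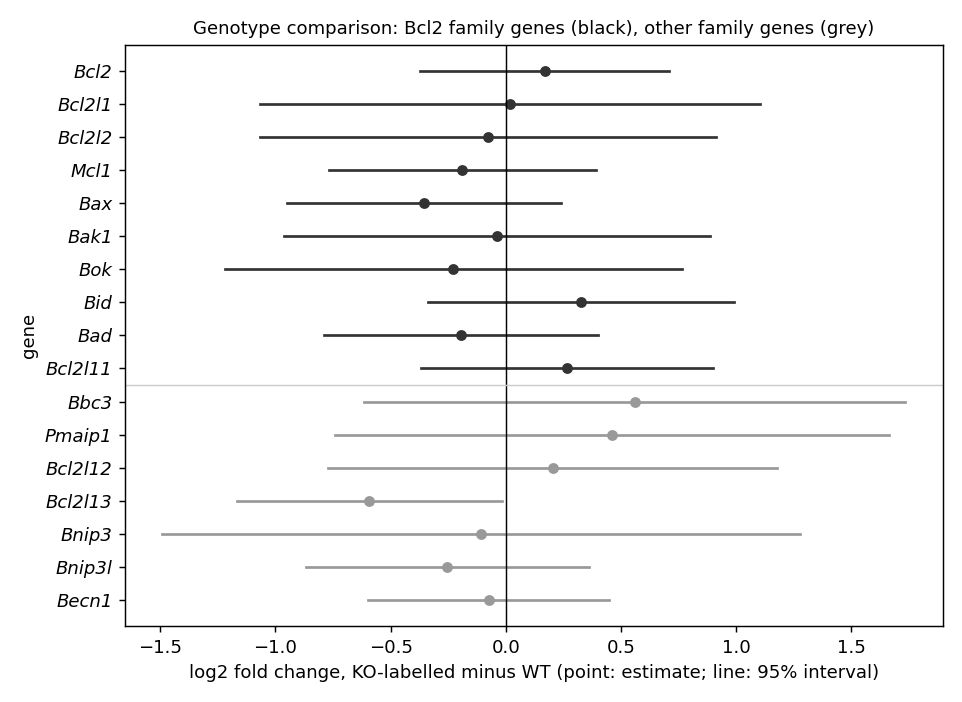
Log2 fold change, KO-labelled minus WT, with its 95% interval from limma, for the 10 family genes (black) and the other measured genes with a Bcl2 or BH3-like domain (grey). All 10 black intervals cross 0, and the grey interval of Bcl2l13 ends at -0.016.

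Where the annotation places another gene over a member, the reads cannot be assigned with certainty, because the counting rule is not given in the sources used here. In GENCODE M21 this holds for 6 of the 10 genes. Bid overlaps the measured gene Bcl2l13 and Bad overlaps the measured gene Gpr137, both on the opposite strand. Bax and Bcl2l2 share their strand with a predicted coding gene (Gm45808 and Gm20521). Bcl2 shares its strand with Mir3473f and Gm37053, and Bid with Gm44260. On the opposite strand, Bak1 overlaps Ggnbp1, Bcl2 an antisense RNA, and Bid also a pseudogene.

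The balance of guardians to effectors was read within each library, where it does not depend on the scaling between libraries. The ratio of Bcl2 to Bax in reads per kilobase was 0.203 in WT 1 and 0.227 in WT 2, and 0.380 in KO 1 and 0.252 in KO 2. Both KO-labelled libraries thus had more Bcl2 relative to Bax than both WT libraries. With Bcl2 higher and Bax lower in both, as given above, this separation had to follow and is not a further result. The counting interval of the KO 1 ratio (0.335 to 0.432) lay apart from those of WT, and that of KO 2 (0.212 to 0.299) overlapped them. The mean log2 ratio was 0.53 higher in the KO-labelled libraries, 0.23 higher without KO 1 and 0.82 higher without KO 2. With 2 libraries against 2, an exact permutation test cannot give a two-sided p below 0.333, so that test could not call the difference. The pooled SD within the groups was 0.31 on the log2 scale. The trend of values with transcript length and GC content was not removed from the ratio. With that trend removed, the log2 fold changes were 0.026 for Bcl2 and -0.37 for Bax.

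The other ratios did not separate the groups. Mcl1 to Bax was 1.72 and 1.83 in WT, 2.61 in KO 1 and 1.52 in KO 2. Bcl2l1 to Bax was 0.132 and 0.107 in WT, 0.273 in KO 1 and 0.0869 in KO 2. For the guardians summed against the effectors summed, the ratio was 1.60 and 1.65 in WT, 2.47 in KO 1 and 1.32 in KO 2. In each of these, KO 1 had the highest ratio of the 4 libraries and KO 2 the lowest.

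**Figure D4:**
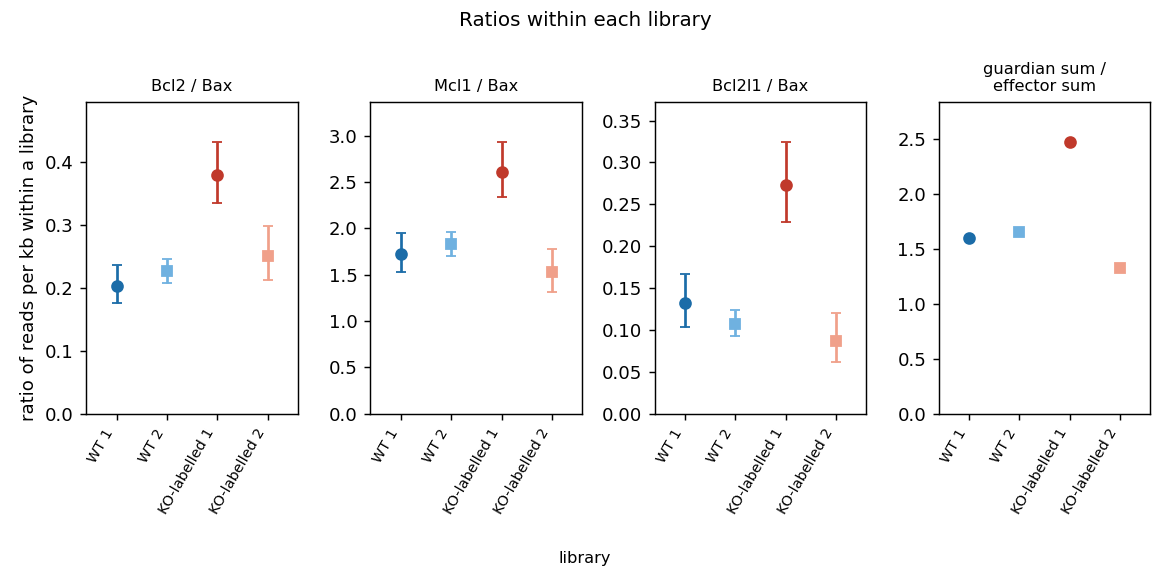
Ratios of reads per kilobase within each library, with axes starting at 0. Bars, where drawn, are exact 95% intervals for counting error. KO 1 is highest in all 4 panels, and KO 2 lies above both WT libraries in the Bcl2 to Bax panel and below both in the others.

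The clearest contrasts within the family lay between KO 1 and KO 2. Bcl2l1 was 2.40 times as high in KO 1 as in KO 2 (95% counting interval 1.73 to 3.40), and Bak1 was 2.07 times as high in KO 2 as in KO 1 (1.66 to 2.57). These intervals compare the reads of 2 libraries, not conditions. They were the 2 members of 10 that differed more than 2-fold between these libraries, where 10.2% of all features did. Between WT 1 and WT 2, 0 of the 10 differed more than 2-fold. Of neuron markers, 13 of 16 listed genes were measured, and Rbfox3, Nefm and Tbr1 were not on the table. Their summed level was 968 and 1146 CPM in WT, 2134 CPM in KO 1 and 902 CPM in KO 2, and 13 of 13 were highest in KO 1. Summed astrocyte markers were 1511, 645, 538 and 987 CPM, and summed oligodendrocyte lineage markers 1018, 994, 677 and 975 CPM, in WT 1, WT 2, KO 1 and KO 2. The part of these cell type markers in the values of Bcl2l1, Bak1 and Bax was not tested. In bulk samples, more cells of a type and more RNA per cell cannot be told apart.

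**Figure D5:**
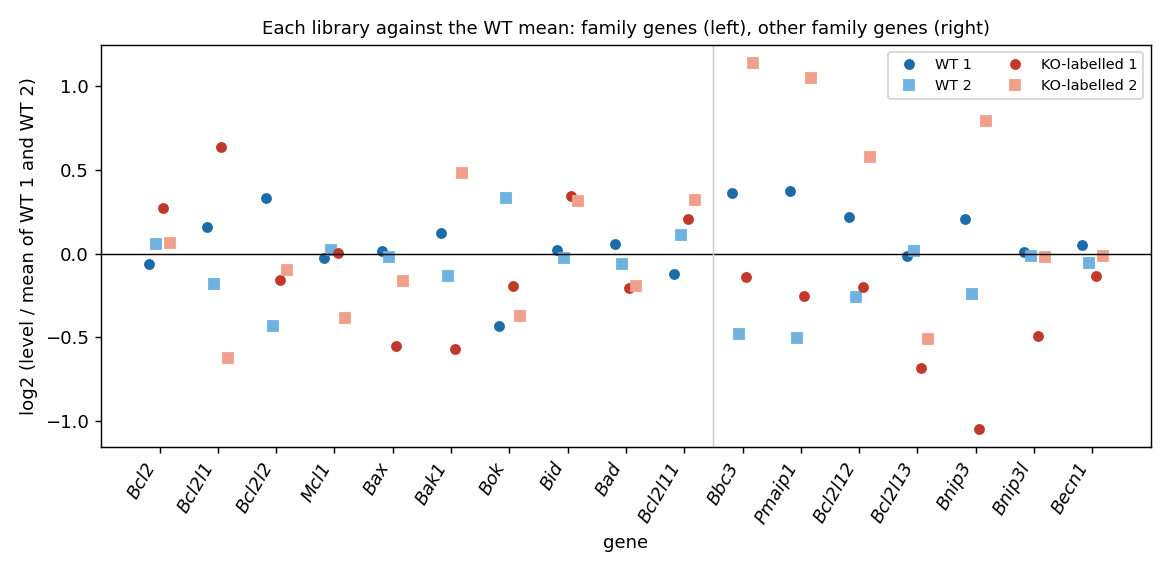
Log2 of each library's level over the mean of WT 1 and WT 2, for the 10 family genes and the other measured genes with a Bcl2 or BH3-like domain. KO 1 and KO 2 lie far apart and on opposite sides of 0 for Bcl2l1, Bak1, Bbc3, Pmaip1 and Bnip3, and close together for Bid and Bad.

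Of 16 further genes with a Bcl2 or BH3-like domain, 7 were measured and none passed by limma. Their median log2 fold change was -0.073, with 3 estimates above 0 and 4 below. Bmf, Bik, Hrk, Bcl2l10, Bcl2l14 and 3 Bcl2a1 copies were not on the table, and Bcl2l15 shares its feature with Ap4b1 and is not counted. Bbc3 and Pmaip1 encode Puma and Noxa, the BH3-only proteins that p53 induces, and they shared a pattern of levels. Bbc3 stood at 25.7 and 14.3 CPM in WT, 18.2 CPM in KO 1 and 44.1 CPM in KO 2. Pmaip1 stood at 24.0 and 13.1 CPM in WT, 15.6 CPM in KO 1 and 38.4 CPM in KO 2. For both, KO 2 was the highest library and KO 1 lay between the WT values. Their log2 fold changes of 0.56 (SE 0.49, adjusted p = 0.766 by limma) and 0.46 (SE 0.50, adjusted p = 0.806) were -0.086 and -0.20 without KO 2. Bcl2l12 showed the same order, with 6.94 and 4.98 CPM in WT, 5.18 CPM in KO 1 and 8.89 CPM in KO 2. The order was thus not particular to Bbc3 and Pmaip1, and a part of p53 in it was not tested.

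Bnip3, a mitophagy receptor that hypoxia induces, was the most variable. It stood at 396 and 291 CPM in WT, 167 CPM in KO 1 and 596 CPM in KO 2. KO 2 had 3.58 times the level of KO 1 (counting interval 3.39 to 3.79), while the log2 fold change between genotypes was -0.11 (SE 0.57, adjusted p = 0.970 by limma). Its relative Bnip3l stood at 52.6 and 51.8 CPM in WT, 37.1 CPM in KO 1 and 51.5 CPM in KO 2, so KO 1 lay apart and KO 2 just under WT.

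Bcl2l13, which also serves as a mitophagy receptor, had the lowest p of these genes. It stood at 29.3 and 29.9 CPM in WT, against 18.4 CPM in KO 1 and 20.8 CPM in KO 2. Both KO-labelled libraries lay below WT by more than the spread within a group, with a log2 fold change of -0.59 (SE 0.24, unadjusted p = 0.0456, adjusted p = 0.655 by limma), so it did not pass. Becn1, an autophagy protein whose BH3 domain Bcl2 binds, was even across libraries, at 67.7 to 76.9 CPM, and its log2 fold change was -0.073 (interval -0.60 to 0.45). Bcl2l12 was low in all libraries, at 4.98 to 8.89 CPM.

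Partners of the pathway at the mitochondrion and downstream of it were all measured, 15 of 15, and 0 passed by limma. Of these, 12 had estimates below 0 and 3 above, with a median log2 fold change of -0.24 against 0.012 for all features, and 2 lay at an unadjusted p under 0.05. That is 20% of the partners with an estimate above 0, where 51.4% of all features had one, and 13.3% under the unadjusted 0.05, where 7.58% of all features lay. The 2 genes were Cycs and Vdac2. Cycs, which encodes the cytochrome c that effectors release, stood at 340 and 510 CPM in WT, against 224 CPM in KO 1 and 274 CPM in KO 2. Vdac2, a channel that holds Bak1 at the membrane, stood at 380 and 321 CPM in WT, against 173 CPM in KO 1 and 250 CPM in KO 2. Each had an estimate of -0.75 on the log2 scale (SE 0.29 and 0.27) and an adjusted p of 0.655 by limma.

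The estimates of Apaf1 and Casp9 lay on opposite sides of 0. Apaf1, the scaffold of the apoptosome, stood at 66.3 and 61.2 CPM in WT, against 66.7 CPM in KO 1 and 48.2 CPM in KO 2. Casp9, the initiator caspase it activates, was low, at 5.69 and 6.45 CPM in WT, against 7.05 CPM in KO 1 and 9.78 CPM in KO 2 (an estimate of 0.45 on the log2 scale, SE 0.34, adjusted p = 0.733 by limma). Opa1, which shapes the inner membrane folds that store cytochrome c, stood at 260 and 239 CPM in WT, against 195 CPM in KO 1 and 197 CPM in KO 2 (-0.35, SE 0.22, adjusted p = 0.695).

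Of 21 listed regulators of family proteins, 19 were measured and 0 passed by limma, with none under an unadjusted p of 0.05. Estimates were above 0 for 13 and below for 6, and their median log2 fold change was 0.21, so 68.4% were above 0 against the 51.4% of all features. Trp53, which encodes p53, was level across libraries, at 10.1 and 10.3 CPM in WT, against 10.7 CPM in KO 1 and 10.7 CPM in KO 2 (an estimate of 0.062 on the log2 scale, SE 0.28). Mdm2, both the ubiquitin ligase of p53 and its target gene, stood at 43.3 and 42.0 CPM in WT, against 52.9 CPM in KO 1 and 45.9 CPM in KO 2 (0.21, SE 0.23, adjusted p = 0.806). Huwe1, a ubiquitin ligase of Mcl1, stood at 60.1 to 63.2 CPM in 3 libraries and at 84.3 CPM in KO 1. Usp9x, a deubiquitinase that stabilises Mcl1, stood at 224 to 243 CPM in the same 3 and at 305 CPM in KO 1. For both, KO 1 alone lay apart.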

How the data were processed

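The deposited table gives a signal for each feature, made by the authors from read counts by division with a factor for each library. STAR 2.3.0, SAMtools 0.1.19, Picard 1.119, DESeq 1.12.1 and FastQC 0.10.1 are named in the submitters' processing notes. The filter, counting rule, annotation and build were not stated in the sources used here. Values were whole multiples of 1 step per library (100% within 0.01 of a step), from which whole reads were recovered. The deposited totals differed 4.10-fold, and before scaling the median feature had a log2 fold change of -1.25. The values were therefore divided by TMM factors (edgeR 4.0.16). Features were kept by filterByExpr (minimum 10), and limma 3.58.1 with a trend was fitted in R 4.3.3 to log2(scaled value + 1), a scale that understates changes of low genes. Adjusted p-values of single genes come from that fit, and edgeR and DESeq2 1.42.0 were run on recovered reads. The procedure was tested on simulated counts. Levels of 3 reads, a floor that covers counting error only, are 0.134 to 0.502 CPM. Length and GC content came from GENCODE M21. Named are all members, the measured further family genes, and partners and regulators picked by role. Members and lists were chosen with earlier results of these data known. The result of 1 partner picked by role is not reported here.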

Additional observations from a re-analysis of the deposited data

How the results depend on the processing

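Over 17 alternatives, 432 of 457 estimates of the 27 named genes kept their direction and their lack of a call, and 25 changed sign, in 10 genes, 4 of them members. Replicate blocks and changed filters on low values leave an estimate as it was by design, so these alternatives could not change a sign. The counts of members, further family genes, partners and regulators past the threshold were 0 in every alternative. Over all features the count was 0 by limma, 20 by the edgeR exact test and 21 by DESeq2, and ranged from 0 to 179 over the libraries left out in turn (25 without KO 1, 179 without KO 2), a lone library being assumed to vary like the other group. With the replicate block the counts were 0, and no source used here says what libraries of the same number share. The WT 1 minus WT 2 and KO 1 minus KO 2 differences correlated at -0.308 across features. The crossed replicate block, chosen after seeing the data, also gave 0. The cause of the sign changes was not tested. Bak1 turned to 0.0034 with upper quartile scaling, 0.039 with edgeR's quasi-likelihood test, 0.041 with its exact test and 0.035 with DESeq2. Bnip3 turned to 0.15, 0.15 and 0.14 with those tests and to 0.14 without the length and GC trend. Without that trend, Bcl2l1 became -0.058 and Huwe1 -0.17, and Bcl2l2 became 0.040 with limma-voom. Over the libraries left out in turn, log2 fold changes ranged from -0.57 to 0.48 for Bak1, -0.60 to 0.14 for Bok, -0.61 to 0.64 for Bcl2l1, -0.45 to 0.30 for Bcl2l2, -0.086 to 1.20 for Bbc3, -0.20 to 1.11 for Pmaip1, -0.19 to 0.59 for Bcl2l12, -1.04 to 0.81 for Bnip3, -0.40 to 0.056 for Apaf1 and -0.062 to 0.42 for Huwe1. The log2 ratios, KO-labelled minus WT, ranged from 0.23 to 0.82 for Bcl2 to Bax, -0.22 to 0.56 for Mcl1 to Bax, -0.45 to 1.20 for Bcl2l1 to Bax and -0.30 to 0.60 for guardians to effectors. Bcl2l2 and Bok rested on the fewest reads of the 10 members, and the part of depth in their errors was not tested.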
